A study of Mus musculus with 6 samples.

Results

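The genes described here encode the nuclear subunits of the mitochondrial respiratory chain and of ATP synthase. They are 57 genes taken by name from a count table of 55359 rows: 27 of complex I, 4 of complex II, 7 of complex III, 11 of complex IV and 8 of complex V. All 57 were found, and all 57 had enough reads to be tested. Ndufa4, named as a complex I gene, is counted here with complex IV, where its protein is now placed.

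The cells were myeloid-derived suppressor cells (MDSCs), immature myeloid cells that restrain T cells, grown from bone marrow of C57BL/6 mice. Bone marrow cells were cultured for 4 days in GM-CSF (40 ng/ml) and IL-6 (40 ng/ml), and polymorphonuclear MDSCs were then purified by kit. The mtDNA group (3 libraries) received mitochondrial DNA at 250 ng/ml by lipid transfection, the blank group (3 libraries) did not, and RNA of both was taken after 12 h. Poly(A) RNA was read as directional single-end libraries, with 4018360 to 4911103 counts per library.

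Whether the blank cells were given the transfection reagent is not stated, and no other DNA was tested, so effects of the reagent, of any DNA and of mtDNA cannot be told apart. The labels do not say that the libraries of a group came from separate mice or cultures. The spread behind each p-value is thus that of libraries, and it may be technical. The age and sex of the mice and the purity of the cells are not given either.

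The respiratory chain sits in the inner mitochondrial membrane. Complexes I and II pass electrons from NADH and succinate to ubiquinone, complex III passes them on to cytochrome c, and complex IV hands them to oxygen. Complexes I, III and IV pump protons as they do so, and complex V, the ATP synthase, uses the proton gradient to make ATP. The genes for these proteins are split between the nucleus and the mitochondrial DNA itself, except in complex II, which is wholly nuclear. In activated macrophages and related myeloid cells the chain is known for its part in inflammation, with oxidation of succinate at complex II as a much studied step.

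Many of these genes are known to be driven by the transcription factors NRF1, YY1 and members of the ETS family. RefSeq promoter windows (build GRCm38.p6, 250 bases before to 50 bases after a start site, 300 bases in all) were matched to 46 of the 57 genes. The letters GCATGCGC, the core of the NRF1 motif, stood on either strand in the windows of 5 of these 46 genes (10.9%), against 3.05% of 27025 mouse genes in the same table. The stretches below show those letters where they lay before the start site, as an example of a motif found in genes of several complexes (I to IV, and in none of the 7 matched genes of complex V). Capitals mark the motif, which overlaps itself in Cox6a1. The stretches lie at chr15:82354341-82354400, minus strand (Ndufa6, complex I), chr2:36049339-36049372, minus strand (Ndufa8, complex I), chr4:140961191-140961250, plus strand (Sdhb, complex II) and chr5:115349085-115349146, minus strand (Cox6a1, complex IV).
Ndufa6: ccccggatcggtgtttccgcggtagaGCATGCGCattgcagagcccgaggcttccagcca
Ndufa8: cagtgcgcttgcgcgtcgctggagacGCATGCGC
Sdhb: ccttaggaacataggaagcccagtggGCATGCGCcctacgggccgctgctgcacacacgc
Cox6a1: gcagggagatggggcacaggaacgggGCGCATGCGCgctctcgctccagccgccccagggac

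The first capital stood 83 bases before the start site in Ndufa6, 8 in Ndufa8, 54 in Sdhb and 162 in Cox6a1. The fifth gene was Uqcrc1 of complex III. The YY1 letters AAGATGGC were in the windows of 7 of the 46 genes (15.2%, against 3.19% of all genes), and 6 of these 7 belong to complex I, which holds 24 of the 46. The ETS letters CCGGAAGT were in 4 of 46 (8.7%, against 4.31%), 1 each in complexes I, III, IV and V. The core of the element through which interferon acts, GAAA, any 2 bases and GAAA, was in 2 of 46 (4.35%, against 3.99%). Both strands were searched for each motif. Such matches describe letters, not binding.

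The members were abundant transcripts in these cells. Levels of different genes are compared per length, as TPM (read count over transcript length, scaled to the same sum in every library). By mean TPM, 55 of the 57 stood above the median tested gene (23.85 TPM) and 32 were in the top 10%, with a median percentile of 92.6. The highest was Cox4i1, a nuclear subunit of complex IV, at a level of 970.2 ± 25.9 TPM in blank libraries and 947 ± 19.2 TPM in mtDNA ones (SD, n = 3 each). Next stood Atp5f1b, the catalytic beta subunit of ATP synthase, at 910.4 ± 26.3 and 865 ± 16.8 TPM, and Cox5a, another structural subunit of complex IV, at 761 ± 14.9 and 726 ± 43.5 TPM. The lowest were Ndufb4, an accessory subunit of the membrane arm of complex I, at 9.12 ± 0.83 and 11.04 ± 0.834 TPM, and Ndufb2, of the same arm, at 20.5 ± 2.45 and 17.3 ± 1.24 TPM. In each library Cox4i1 stood above Atp5f1b and Atp5f1b above Cox5a, although blank 1 held Cox4i1 and Atp5f1b at nearly the same level (943 and 939.6 TPM).

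**Figure D1:**
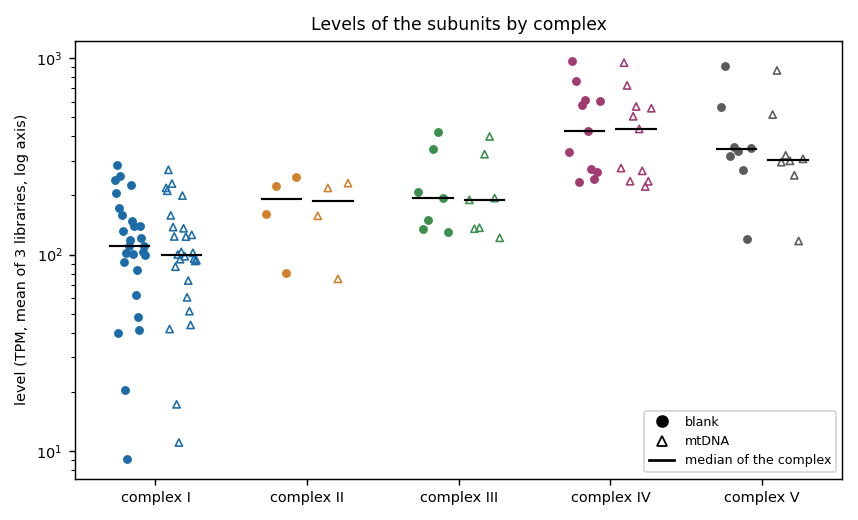
Level of each of the 57 genes in TPM (log axis), grouped by complex, for blank and mtDNA libraries. Complex IV and V genes fill the upper range and complex I genes the lower one, down to Ndufb4 at 9.12 TPM in blank libraries.

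Levels differed by complex, with complexes II and III close together by median. The median subunit of complex I had 111 TPM in blank libraries, that of complex II 192.1, of complex III 193.2, of complex V 343.2 and of complex IV 426.9. Averaged over subunits, blank levels were 124.5 TPM for complex I, 178 for complex II, 226 for complex III, 402.4 for complex V and 481 for complex IV. The complexes overlapped gene by gene: Ndufa3, a small membrane-arm subunit and the highest of complex I, reached 285.5 ± 18.1 TPM in blank libraries, above Cox5b at 234 ± 8.27 TPM, the lowest of complex IV. In complex II the range ran from Sdhc at 80.5 ± 5.78 TPM to Sdhd at 248 ± 12.3 TPM, both of them membrane anchors of the enzyme. In complex III it ran from Cyc1 at 130.5 ± 6.5 TPM to Uqcrh at 419 ± 16.5 TPM, and in complex V from Atp5po at 120.3 ± 4.49 TPM to Atp5f1b. These levels rest on 1 transcript model per gene, and the extremes named here and the order of complexes II and III change with it. By the length of all annotated exons, complex II stood above complex III in both median and mean. Ndufb2 then stood below Ndufb4 (2.6 and 7.24 TPM in blank libraries). With the length of all annotated exons, Cox8a stood above Cox4i1 in blank libraries (838.6 and 730.7 TPM). Atp5f1a then stood above Atp5f1b (698.9 and 645.1 TPM) and Ndufa1 above Ndufa3 (376.1 and 225.5 TPM). Cox6c stood below Cox5b (94.3 and 200.1 TPM) and Uqcrq below Cyc1 (118.9 and 144.3 TPM). Further, 16 members share over 10% of their 75-base windows with transcripts of other genes, 9 of them with a processed pseudogene. The share was largest in Cox7c (50.4%), followed by Atp5pd (40.3%), Atp5po (39.1%), Ndufb4 (35.2%), Ndufs5 (32.4%) and Ndufb6 (31.3%), and it was 21.8% in Ndufb2. The levels of all 16 are uncertain, among them those given here as the lowest of complexes I, IV and V.

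With mtDNA, none of the 57 genes was called higher and none lower (edgeR quasi-likelihood test, Benjamini-Hochberg adjusted p under 0.05). Over all 11190 tested genes 17.8% were called, 11.9% higher and 5.98% lower. Without adjustment 2 members had p under 0.05, Cox6c upward and Ndufa4 downward, against 29.6% of all tested genes. By the same unadjusted threshold limma-voom gave 1 member and DESeq2 gave 0, and neither called any after adjustment. The smallest adjusted p of a member in edgeR was 0.126.

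The intervals show how large a difference these libraries leave room for. In 40 of the 57 members the 95% interval lay wholly inside a 1.2-fold change in either direction, against 24.3% of all tested genes. Abundant genes have narrower intervals: among 2360 tested genes with standard errors between the lower and upper quartile of the members', 48.4% had such an interval and 23.1% were called. For 55 members the interval lay inside 1.5-fold, and the exceptions were Ndufb2 and Ndufb4, which have few reads. DESeq2, with wider intervals, placed 28 members inside 1.2-fold. In edgeR 34 were inside it with upper-quartile factors and 29 with library totals alone, and 14 and 8 estimates were above 0. In the main analysis 30 estimates were above 0 and 27 below (48.0% of all tested genes were above 0), and 48 were within 1.1-fold (46.9% of all). The members' median log2 fold change was 0.01, beside -0.01 for all genes tested. In 7 members the groups did not overlap, 5 with mtDNA higher and 2 lower, against 33.5% of tested genes (17.9% higher and 15.6% lower).

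**Figure D2:**
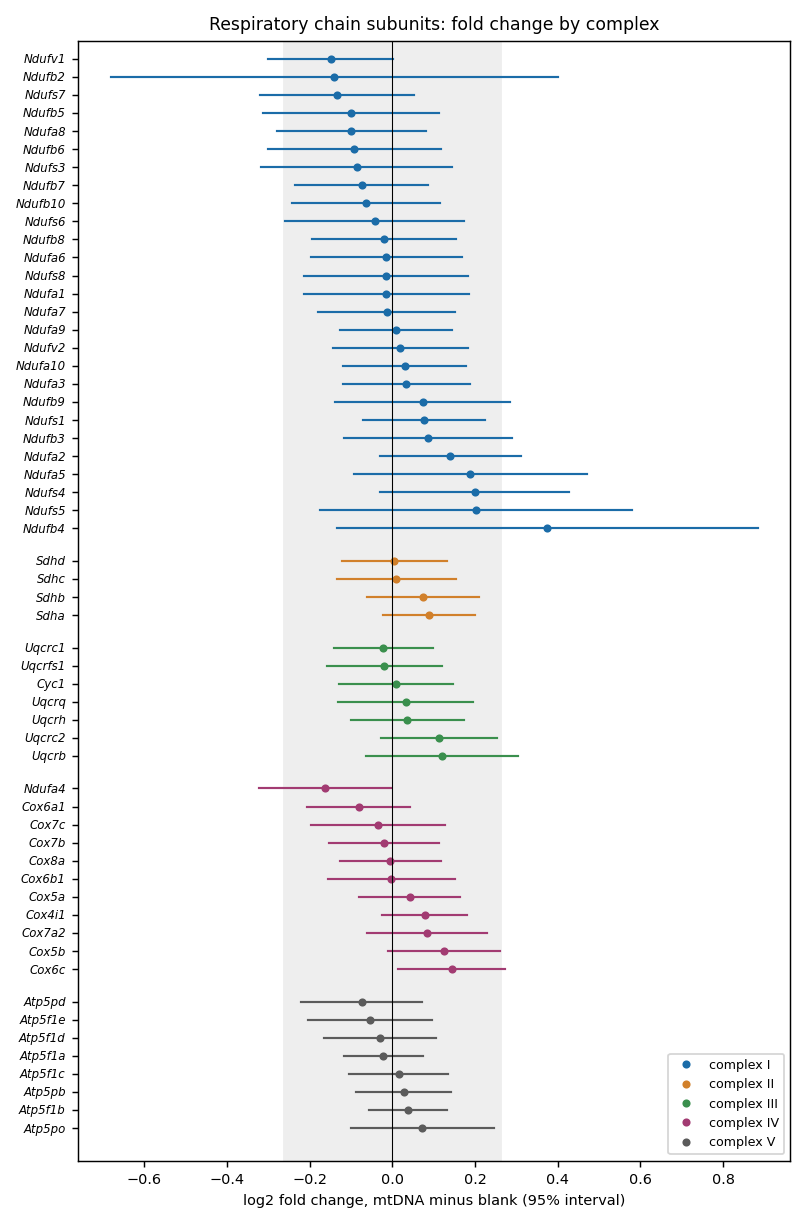
Log2 fold change of each member, mtDNA minus blank, with its 95% interval from edgeR, grouped by complex; the grey band marks 1.2-fold in either direction. In 40 of 57 members the interval stays inside the band, and Ndufb4 and Ndufb2 have the widest intervals.

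Complex I takes electrons from NADH in its N module, passes them to ubiquinone in its Q module and pumps protons through its membrane arm. Its 27 members had a median log2 fold change of -0.01, from -0.15 in Ndufv1 to 0.37 in Ndufb4, with 12 above 0 and 15 below. The interval lay inside 1.2-fold in 13 of 27. The median was 0.0026 in the 8 genes of the N module, -0.01 in the 5 of the Q module and -0.02 in the 14 of the membrane arm.

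Ndufv1 encodes the flavoprotein that receives electrons from NADH. Its libraries read 90.41, 84.36 and 84.04 CPM (counts scaled by library size and edgeR's TMM factors) in blank libraries and 83.56, 71.75 and 78.53 CPM in mtDNA ones. The 3 mtDNA libraries were lower than the 3 blank ones, but mtDNA 1 stood within 1 CPM of blank 3. The log2 fold change was -0.15 ± 0.0727 (SE, 95% interval -0.30 to 0.00, adjusted p = 0.176 in edgeR). Ndufs7, the iron-sulfur subunit nearest to ubiquinone, read 42.61, 43.08 and 42.73 CPM in blank and 41.4, 37.06 and 38.95 CPM in mtDNA libraries. Here too the groups did not overlap, and the difference of -0.13 ± 0.0896 on the log2 scale did not pass the test (adjusted p = 0.348 in edgeR). Ndufs1, the large iron-sulfur subunit of the N module, read 75.81, 73.74 and 76.4 CPM against 73.34, 82.89 and 81.28 CPM. Its groups overlapped, with mtDNA 1 the lowest of the 6 (0.08 ± 0.0711 on the log2 scale, adjusted p = 0.512 in edgeR).

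At the membrane arm the low gene Ndufb4 read 4.002, 4.609 and 3.82 CPM in blank and 5.622, 4.926 and 5.715 CPM in mtDNA libraries. All 3 mtDNA libraries were above the blank ones, from 56 reads in the blank group. The estimate of 0.37 ± 0.245 had an interval from -0.13 to 0.88 on the log2 scale, 0.911-fold to 1.846-fold (adjusted p = 0.335 in edgeR). Ndufb2 read 3.767, 4.809 and 4.536 CPM against 3.833, 3.855 and 4.233 CPM, overlapping between groups, with an interval from -0.68 to 0.40. Ndufa3 differed by 0.03 ± 0.0737 on the log2 scale (adjusted p = 0.812 in edgeR). Ndufs4 of the N module, at 38.2 and 44.3 CPM on average, and Ndufa5 of the Q module, at 16.2 and 18.5 CPM, had estimates of 0.20 ± 0.11 and 0.19 ± 0.136, and their groups overlapped.

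Complex II oxidises succinate to fumarate and is also an enzyme of the tricarboxylic acid (TCA) cycle. All 4 estimates were above 0, with a median of 0.04 and a range from 0.0047 to 0.09 on the log2 scale, and all 4 intervals lay inside 1.2-fold. Sdha, the flavoprotein that holds the catalytic site, read 221.8, 209 and 220.6 CPM in blank and 228.7, 236.5 and 226.7 CPM in mtDNA libraries. The mtDNA libraries were all higher, by 0.09 ± 0.0537 on the log2 scale (interval -0.02 to 0.20, adjusted p = 0.293 in edgeR). Sdhb, the iron-sulfur subunit, read 125.7, 115.8 and 117.5 CPM against 135.2, 123.8 and 119.4 CPM, and blank 1 stood within the range of the mtDNA libraries. Its log2 fold change was 0.07 ± 0.0647 (adjusted p = 0.488 in edgeR). The anchors Sdhc and Sdhd, which bind ubiquinone together with Sdhb, had estimates of 0.01 ± 0.069 and 0.0047 ± 0.0614. The sign of these 4 depends on scaling: the median was -0.03 with upper-quartile factors and -0.08 with library totals alone.

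Complex III carries electrons from ubiquinol through the Rieske iron-sulfur protein and cytochrome c1 to cytochrome c. Its 7 members had a median log2 fold change of 0.03, from -0.02 to 0.12, with 6 of 7 intervals inside 1.2-fold and no member whose groups were apart. Uqcrfs1, the Rieske protein, read 90.41, 97.58 and 98.6 CPM in blank and 94.03, 98.53 and 90.38 CPM in mtDNA libraries. The groups lay over each other (-0.02 ± 0.0669 on the log2 scale, adjusted p = 0.884 in edgeR). Cyc1, cytochrome c1, read 87.35, 97.38 and 93.59 CPM against 93.52, 91.89 and 94.83 CPM, a difference of 0.01 ± 0.0664 (adjusted p = 0.954 in edgeR). The core subunits Uqcrc1 and Uqcrc2 had estimates of -0.02 ± 0.0572 and 0.11 ± 0.0676, the second with mtDNA 3 among the blank values. Uqcrb, a small subunit next to the ubiquinone site, had the highest estimate, 0.12 ± 0.0882 (interval -0.06 to 0.30), and 29.1% of its windows are shared, with pseudogenes.

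Complex IV reduces oxygen; its catalytic core is encoded by mitochondrial DNA and surrounded by nuclear subunits. The 11 nuclear members had a median log2 fold change of 0.00 (-0.0032), 5 above 0 and 6 below, and 9 of 11 intervals lay inside 1.2-fold. The 2 others were Cox6c and Ndufa4, with opposite signs. Cox6c (ENSMUSG00000014313), a small structural subunit, read 103.6, 98.38 and 99.32 CPM in blank and 107.6, 109.9 and 114.7 CPM in mtDNA libraries. Every mtDNA library was above every blank one, and the fold was 1.104 (interval 1.009 to 1.209, adjusted p = 0.126 in edgeR). Of its windows 16.6% are shared with a processed pseudogene. Ndufa4 (ENSMUSG00000029632), a small subunit at the edge of the complex, read 84.52, 105.2 and 94.54 CPM in blank and 87.39, 85.68 and 81.92 CPM in mtDNA libraries. Blank 1 stood among the mtDNA libraries while the other two blank libraries were above all of them. The log2 fold change was -0.16 ± 0.0766 (interval -0.32 to -0.004, adjusted p = 0.157 in edgeR). Without blank 1 it was -0.24 and passed the test (adjusted p = 0.0407 in edgeR); it also passed with upper-quartile factors (0.0302) and with library totals alone (0.00945), and the range over all alternatives was 0.00945 to 0.602.

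Cox4i1, which helps to set the response of the complex to ATP, read 327.7, 342.2 and 344.3 CPM in blank and 359.8, 360.7 and 350.1 CPM in mtDNA libraries. The groups did not overlap, yet the difference was only 0.08 ± 0.0496 on the log2 scale (adjusted p = 0.321 in edgeR). Cox5b, a zinc-binding subunit, read 96.29, 91.77 and 96.21 CPM against 105.8, 106.2 and 98.01 CPM, again without overlap (0.13 ± 0.0649, adjusted p = 0.207 in edgeR). The remaining 7 members, from Cox6a1 at -0.08 ± 0.0602 to Cox7a2 at 0.08 ± 0.0694, overlapped between groups.

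Complex V makes ATP at the catalytic sites of its beta subunits. Its 8 members had a median log2 fold change of 0.00 (-0.0034), from -0.07 to 0.07, 4 above 0 and 4 below. All 8 intervals lay inside 1.2-fold and no member's groups were apart. Atp5f1b, the beta subunit, read 839.8, 816.7 and 791.2 CPM in blank and 840.2, 839.4 and 833.4 CPM in mtDNA libraries. Blank 1 was level with the mtDNA libraries (0.04 ± 0.0451 on the log2 scale, adjusted p = 0.628 in edgeR). Atp5f1a, the alpha subunit, read 666.5, 655.8 and 639.8 CPM against 662.8, 636.6 and 634.2 CPM, overlapping (-0.02 ± 0.0462, adjusted p = 0.806 in edgeR). The lowest estimate was that of Atp5pd and the highest that of Atp5po, both of the peripheral stalk, at -0.07 ± 0.0698 and 0.07 ± 0.0831, with 40.3% and 39.1% of windows shared.

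Summed over its members, each complex stayed within 4% of its blank level on the TMM scale. The mtDNA-to-blank ratio of summed CPM was 0.998 for complex I (1326 ± 22.9 against 1323 ± 30.2 CPM), 1.037 for complex II (599 ± 13.4 against 621 ± 13.7), 1.023 for complex III (689.6 ± 5.68 against 705 ± 20.6), 1.018 for complex IV (1607 ± 48.3 against 1636 ± 42.9) and 1.004 for complex V (2213 ± 32 against 2223 ± 29.8), blank first in each. The 57 genes together came to 6396, 6520 and 6386 CPM in blank and 6652, 6445 and 6425 CPM in mtDNA libraries, which overlap.

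That level depends on how libraries are scaled. The TMM factors were 1.037 to 1.046 in blank and 0.947 to 0.966 in mtDNA libraries, so they differed between the groups without overlap. As a plain share of all counts, the members took 0.661%, 0.678% and 0.666% in blank and 0.628%, 0.621% and 0.618% in mtDNA libraries. Every mtDNA library was below every blank one, with a ratio of means of 0.931, and the same held for each complex. With library totals alone the median over all genes was -0.13 on the log2 scale. The members' median under that scaling was -0.11. The 281 genes called higher at 2-fold or more took 1.18 ± 0.178% of counts in blank libraries and 4.29 ± 0.253% with mtDNA (SD, n = 3 each). They were picked by their rise in these libraries, so a larger share was fixed in advance. Its part in the members' share was not tested. With totals alone 6 members were called lower in edgeR (Ndufs7, Ndufv1, Ndufa4, Cox6a1, Atp5f1a and Atp5pd) among 2356 of 11190 genes, and with upper-quartile factors 2 were (Ndufv1 and Ndufa4) among 1504.

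**Figure D3:**
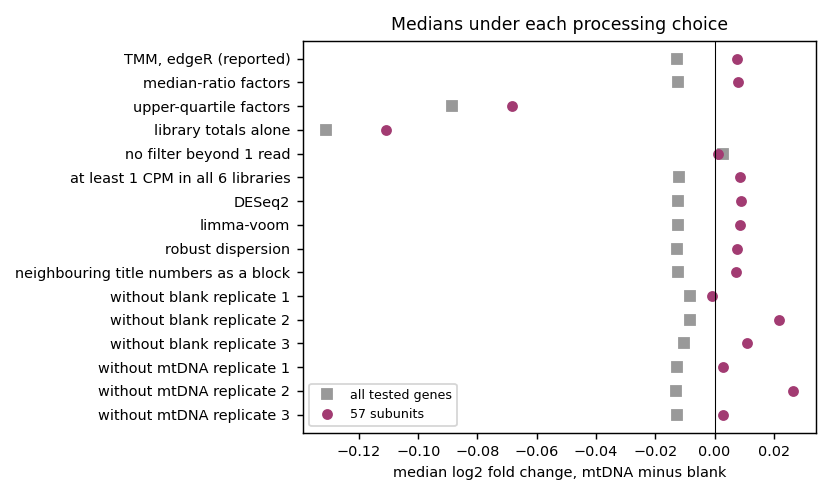
Median log2 fold change (mtDNA minus blank) of the members and of all tested genes under each way of scaling, filtering or testing and with each library left out. Members and all genes had medians of -0.11 and -0.13 with library totals alone, and of -0.07 and -0.09 with upper-quartile factors. Without mtDNA 2 the members' median was 0.03, while that of all genes stayed at -0.01.

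The balance between complexes does not depend on that scaling. Complex V held 34.4 ± 0.553% of the members' reads in blank and 34.2 ± 0.249% in mtDNA libraries, complex IV 24.98 ± 0.567% and 25.1 ± 0.333%, complex I 20.6 ± 0.216% and 20.3 ± 0.228%, complex III 10.7 ± 0.0625% and 10.8 ± 0.128%, and complex II 9.31 ± 0.182% and 9.54 ± 0.06%. No share differed by more than 0.278 percentage points, and in all 5 the libraries of the groups overlapped. Within the blank group alone, complex IV ran from 24.32% to 25.33%.

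**Figure D4:**
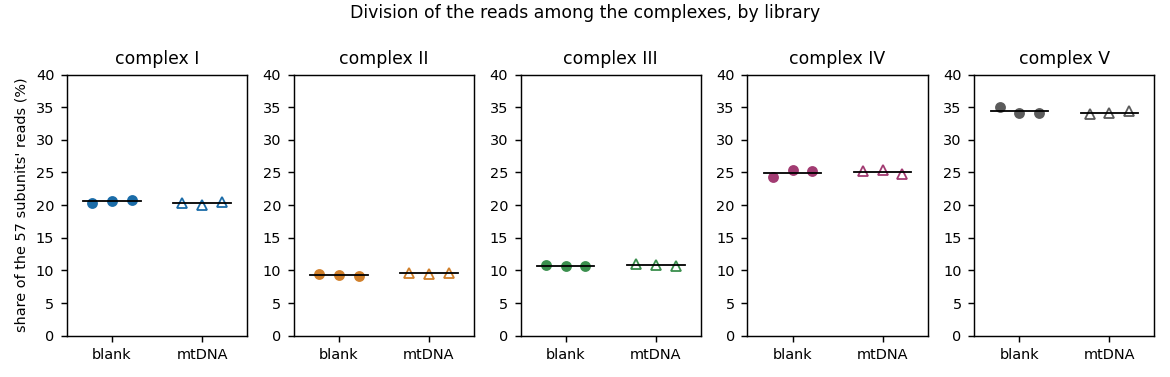
Percent of the members' reads that each complex holds in each library, with the group mean as a line. In each of the 5 complexes the blank and mtDNA libraries overlap, with complex V highest at 34.4% and complex II lowest at 9.31% of reads in blank libraries.

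Around the members, 140 other genes of the chain were listed, of which 122 were tested, with 7 called higher and 5 lower in edgeR (11.9% and 5.98% of all tested genes). Among 23 further structural subunits 0 were called, and 1 had an unadjusted p under 0.05, Atp5mk of ATP synthase (0.20 ± 0.0907 on the log2 scale, adjusted p = 0.151 in edgeR). Of 9 isoforms known from other tissues none had enough reads to be tested, and 4 had no read at all: Ndufa4l2, Cox7b2, Cox8b and Cox8c.

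Of the 12 called genes, 6 were assembly factors, 4 partners or modulators, and none a structural subunit. In complex IV assembly 3 of 20 were called higher in edgeR. Coa5, which is needed to build the complex, read 150, 145.5 and 148.5 CPM in blank and 226.9, 206.3 and 207.9 CPM in mtDNA libraries (0.53 ± 0.0578 on the log2 scale, adjusted p = 3.54e-07 in edgeR). Cox15, an enzyme of heme a synthesis, rose from 42.6 ± 1.05 to 60.8 ± 2.71 CPM (SD, n = 3 each; 0.51 ± 0.0817 on the log2 scale, adjusted p = 7.14e-05 in edgeR). The third was Cox18, which inserts a subunit into the membrane, at 9.48 ± 0.968 and 13.7 ± 2.18 CPM (adjusted p = 0.0306 in edgeR), named after its values were seen. In complex I assembly 1 of 15 was called higher and 2 lower in edgeR. Foxred1 rose from 24.5 ± 1.91 to 36.6 ± 3.94 CPM (0.58 ± 0.111 on the log2 scale, adjusted p = 0.000637 in edgeR). Ndufaf4 fell from 10.5 ± 1.57 to 6.59 ± 1.5 CPM and Tmem186 from 15.6 ± 3.8 to 10.3 ± 2.17 CPM (adjusted p = 0.0331 and 0.0272 in edgeR). In DESeq2 the calls of Ndufaf4, Tmem186 and Cox18 were lost, and that of Cox18 also with upper-quartile factors and with library totals alone (adjusted p = 0.0542 and 0.0689 in edgeR). In edgeR that of Ndufaf4 was also lost without blank 1, blank 2 or mtDNA 1, and those of Tmem186 and Cox18 without blank 2, blank 3, mtDNA 2 or mtDNA 3. The assembly lists of complexes II, III and V had no called gene among 3, 5 and 5 tested, and 1, 0 and 0 at an unadjusted p under 0.05. Their smallest p values belonged to Sdhaf4 (0.55 on the log2 scale, adjusted p = 0.128 in edgeR, called without blank 1 at 0.83), Bcs1l (-0.28, adjusted p = 0.47) and Atpaf1 (-0.33, adjusted p = 0.437).

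Of 13 genes of ubiquinone synthesis and 6 carriers of adenine nucleotides and phosphate none was called in edgeR, with 2 and 0 at an unadjusted p under 0.05. Coq8b, a kinase-like protein of ubiquinone synthesis, had an estimate of 0.33 (adjusted p = 0.0841 in edgeR) and Vdac1, the outer membrane channel, one of -0.09 (adjusted p = 0.305 in edgeR). Vdac1 was called lower with upper-quartile factors (-0.17, adjusted p = 0.0412 in edgeR) and with library totals alone (-0.21, adjusted p = 0.00927). In the TCA cycle 1 of 14 was called, Idh3a, a subunit of the NAD-linked isocitrate dehydrogenase, which fell from 53.6 ± 0.425 to 44.6 ± 2.22 CPM (adjusted p = 0.032 in edgeR). That call was lost in DESeq2 and in 5 of the 6 fits with a library left out. Among 9 regulators 1 was called, Pprc1, a coactivator of mitochondrial biogenesis genes, at 52.5, 46.89 and 47.75 CPM in blank and 34.75, 37.06 and 38.1 CPM in mtDNA libraries (-0.41 ± 0.0905 on the log2 scale, adjusted p = 0.00213 in edgeR). Its relative Ppargc1a had 0 reads in blank and 2 in mtDNA libraries and was not tested.

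Among 9 partners and modulators of the chain in inflammation or hypoxia 3 were called higher and 1 lower in edgeR. AA467197 (ENSMUSG00000033213, also called Nmes1) encodes a small paralog of NDUFA4 that is known to take its place in complex IV in inflammation. It had 79, 80 and 71 reads in blank and 154, 164 and 141 in mtDNA libraries, or 18.6, 16.03 and 16.95 CPM against 39.35, 35.13 and 29.85 CPM. All mtDNA libraries were above all blank ones, with a fold of 2.015 (1.01 ± 0.126 on the log2 scale, interval 0.75 to 1.27, adjusted p = 2.44e-06 in edgeR), and the log2 fold change was 0.89 to 1.11 over the alternatives. Reads of AA467197 per read of Ndufa4 were 0.22, 0.152 and 0.179 in blank and 0.45, 0.41 and 0.364 in mtDNA libraries, and this ratio needs no scaling of libraries. The ratio of the means was 2.22, and the exact two-sided permutation test gave p = 0.1, the smallest that 3 libraries against 3 allow.

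**Figure D5:**
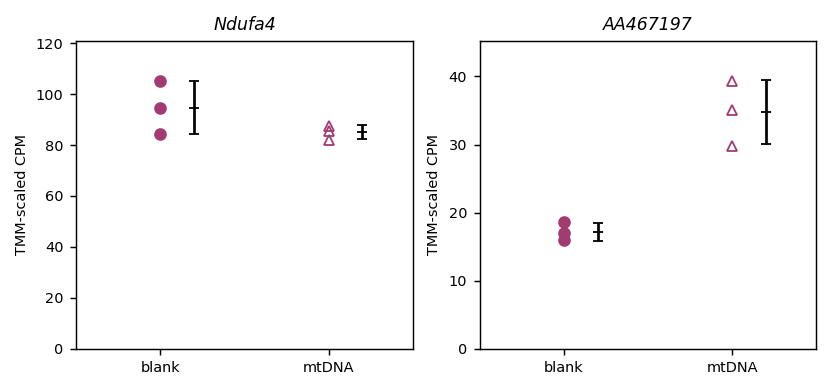
CPM of Ndufa4 and of its paralog AA467197 in each library, with group mean and SD. AA467197 separates the groups (17.2 and 34.8 CPM on average), while blank 1 of Ndufa4 lies among the mtDNA libraries.

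Acod1, which makes itaconate, an inhibitor of complex II, rose from 99.2 ± 17.1 to 442 ± 62.5 CPM (2.16 ± 0.0971 on the log2 scale, adjusted p = 1.09e-13 in edgeR), beside the complex II genes, none of which was called. The third called higher was Dnajc15, a modulator of the chain, at 59.7 ± 3.12 and 69.9 ± 3.1 CPM (adjusted p = 0.0401 in edgeR). It was named after its values were seen, and its call was lost in DESeq2, with upper-quartile factors, with library totals alone (0.11 on the log2 scale, against 0.23), without the expression filter and in each of the 6 fits with a library left out. Lonp1, a mitochondrial protease, fell from 79.3 ± 3.2 to 65.7 ± 2.08 CPM (adjusted p = 0.00887 in edgeR, lost in DESeq2). Ucp2, an inner membrane carrier, was abundant in both groups, at 1597 ± 66 and 1645 ± 36.3 CPM (adjusted p = 0.567 in edgeR). Of the 13 subunits encoded by mitochondrial DNA, a list added after the data were seen, 7 were tested, 0 were called higher and 1 lower in edgeR: mt-Nd5 of complex I, at 1514 ± 85 and 1323 ± 155.7 CPM (adjusted p = 0.0391 in edgeR, lost in DESeq2, with robust dispersion and without blank 1, blank 3 or mtDNA 2, the last at -0.10 against -0.19 on the log2 scale). Of the 13, 5 had no read in any library, and the cause was not tested. Transfected mtDNA carries the 13 genes too, and reads from it and from the cells' own mtDNA cannot be told apart.

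Markers of cell types were read in the same libraries. Summed over 12 neutrophil markers, libraries held 8067 to 8437 CPM in blank and 8392 to 9057 CPM with mtDNA, which overlap, and 1 of the 12 was called higher in edgeR; Mmp8 and S100a9 were high, but Ly6g, a defining surface antigen, was at 4.87 ± 0.954 and 5.81 ± 1.14 CPM. The 8 monocyte and macrophage markers summed to 3522 to 3657 CPM in blank and 4470 to 4761 CPM with mtDNA, and 5 of the 8 were called higher in edgeR. Most of that gap lay in Ly6c2, from 537.6 ± 21 to 967.9 ± 73.8 CPM, and Fcgr1, from 56.4 ± 12.2 to 326.9 ± 41.8 CPM. The other 3 called, Ccr2, Csf1r and Cd68, had folds of 1.118, 1.09 and 1.129, and Adgre1 and Cx3cr1 were not called (1.067 and 0.943). The 6 markers of eosinophils, basophils and mast cells summed to 184.5 to 204.6 and 204.7 to 219 CPM, with 1 called higher and 1 lower. Markers of dendritic, erythroid, lymphoid and stromal cells were at or below 47.6 CPM summed in every library, and the sums overlapped between groups. Of these 6, 5, 7 and 5 markers, 3, 0, 4 and 2 had enough reads to be tested, and none was called. Among them only Zbtb46, a dendritic marker, had groups that did not overlap (7.94 and 9.74 CPM on average, higher with mtDNA). In such bulk libraries fewer cells of a type and less RNA per cell cannot be told apart, and the part of these markers in the members' values was not tested.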

How the data were processed

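The authors deposited raw read counts in a table with 1 row per gene and 1 column per library. The submitters' processing notes name STAR 2.7.10a, GRCm39, FastQC and DESeq2. For the annotation release and strand setting: not given in the sources used here. Per-gene counting of this kind can lose or split reads of genes with near-identical copies. Symbols came from GENCODE M21 (build GRCm38), which named 52083 of 55359 IDs, and 8 members of complex V were found under older names. Because the builds differ, only coordinates of RefSeq promoter stretches (GRCm38.p6) are given.

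The 6 libraries were grouped by their treatment label. From the deposited counts edgeR 4.0.16 (R 4.3.3) computed a quasi-likelihood test with its default expression filter, TMM factors (0.947 to 1.05) and Benjamini-Hochberg adjustment over 11190 genes, two-sided, with a threshold of 0.05. Beyond counting noise, replicates varied by 4.54% (edgeR's common biological coefficient of variation). With counting noise included, the within-group SD of log2 CPM (0.5 added) was 0.124 in the median tested gene and 0.0881 in the median member. CPM and TPM were computed here, TPM from the exon length of 1 principal transcript per gene. Standard errors follow from the fold change and the F statistic. Members had 112 to 22101 reads over the 6 libraries, and 50 of 57 had at least 1000. Replicate libraries differed beyond sampling noise, with a chi-square over its degrees of freedom of 1.54 to 2.28 for each pair, so each was counted. Alternatives used DESeq2 1.42.0, limma 3.58.1, other scalings and filters, a block and omission of each library. The code was tested on simulated data.

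Genes named with values were, in each complex, those with extreme levels, extreme fold changes or the smallest p, those whose groups did not overlap, and the subunits with catalytic or redox sites. From each other list up to 2 called genes per direction were named, or the gene with the smallest p, and AA467197, Ndufa4l2, Acod1, Ucp2 and Ppargc1a in any case. The members and the lists were chosen with earlier results of these data known.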

Additional observations from a re-analysis of the deposited data

How the results depend on the processing

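No call of a member changed with median-ratio factors, either other filter, DESeq2, limma-voom or robust dispersion. Members called lower were 0 in the main analysis, 2 with upper-quartile factors, 6 with library totals alone and 0 to 1 with a library left out (1 without blank 1). Other listed genes called lower were 5 in the main analysis, 11 and 23 under those scalings, 1 in DESeq2, and 2 to 4 with a library left out, 2 without blank 2 and 3 without blank 1, blank 3, mtDNA 1 or mtDNA 2. Median log2 fold changes of complexes I to V were -0.0906, -0.0345, -0.044, -0.0792 and -0.0792 with upper-quartile factors, and -0.133, -0.0775, -0.0866, -0.1228 and -0.1225 with library totals alone. With a library left out they ran from 0.0019 to 0.0633 in complex II, 0.0029 to 0.0479 in complex III, -0.0164 to 0.0543 in complex IV and -0.0152 to 0.0159 in complex V. Among members with under 10% shared windows the median of complex V was -0.0216. The mtDNA-to-blank ratios of summed levels of complexes I to V and of all members were 0.919, 0.954, 0.942, 0.937, 0.925 and 0.931 with library totals alone, and 0.947, 0.984, 0.971, 0.966, 0.953 and 0.96 with upper-quartile factors. They were 0.922, 0.956, 0.9501, 0.9396, 0.923 and 0.934 per length, a setting chosen after seeing the data. These 3 scalings do without the TMM factors, which differ between the groups, and place the complexes below 1. Why the factors differ was not tested. For 77 single results, 1105 of 1155 values under the alternatives stayed on the same side of the threshold, 38 lost a call, 12 gained one and 0 turned direction. Staying uncalled counted as the same side. Only a gene called in the main analysis could lose a call, and no member was called there. Neighbouring title numbers as a replicate block gave 0 members called, with a smallest adjusted p of 0.129 in edgeR. Over all genes that block gave 1387 higher and 747 lower. The numbers share no stated culture or mouse, and correlations of libraries with neighbouring numbers were 0.0404 to 0.0449, each library correlating best with its own neighbour, which is a hint from the data only. Depth limits Ndufb2 and Ndufb4, whose intervals reach beyond 1.5-fold.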
